A study of Mus musculus with 4 samples.

Results

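The Zfp genes carry the mouse symbol stem for zinc finger protein followed by a number. They were taken here as the genes whose symbol is Zfp followed by digits only, with at least 1 protein-coding RefSeq transcript, leaving out Zfp42 and Zfp352. Of 329 such genes, 155 were chosen by their measured level, a mean FPKM of at least 3 across the 4 libraries. FPKM counts sequenced fragments relative to the length of the transcript and to the total of the library, and is a level per length. The 155 genes were set beside all 8502 of 20530 protein-coding genes that passed the same level. RNA was sequenced from mouse embryonic stem cells of the line E14Tg2a (strain 129/Ola, passages 30 to 35), grown on feeder layers of mouse embryonic fibroblasts in medium with serum and leukaemia inhibitory factor. The groups were Dnm1l-/-, Fis1-/- and Mff-/- cells, and control E14Tg2a cells without a knockout, with 1 library each. Dnm1l encodes the GTPase (protein Drp1) that constricts mitochondria, and Fis1 and Mff encode adaptors for it on the outer mitochondrial membrane. How the knockout lines were made and how many clones each holds are not given in the sources used here.

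There is no replicate in any group, so no difference below has a replicate check, and no p-value is given. All 3 comparisons use the same control library, so they are not independent of each other. Differences are knockout minus control on the log2(FPKM + 1) scale. On it a doubling is close to 1 for an abundant gene and under 1 for a low one. Counts at 2-fold and 1.5-fold against control use this scale. A low gene can thus pass either size in plain FPKM and not be counted. Depth was estimated from the steps between low values at 35300000, 36100000 and 35800000 fragments in Dnm1l-/-, Fis1-/- and Mff-/- cells and 37800000 in control cells. At this depth counting error alone gave a difference of a typical Zfp gene a 95% interval of 0.13 to each side, and 0.30 for the least certain value. These and the counting intervals below were computed for the plain log2 ratio of fragments. For low genes they are wider than on the log2(FPKM + 1) scale. Spread between cultures adds to counting error and was not measured.

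Most Zfp proteins bind DNA through tandem C2H2 fingers, small folds in which a pair of cysteines and a pair of histidines hold a zinc ion and neighbouring fingers read neighbouring bases. A large subgroup also carries a KRAB domain, which recruits the co-repressor TRIM28 and, through it, the histone methyltransferase SETDB1, heterochromatin proteins and DNA methylation. In embryonic stem cells this system silences endogenous retroviruses and guards imprinted loci. KRAB genes arose by tandem duplication and lie in clusters of close copies, so reads of one copy can be assigned to another and the value of a single cluster member is less certain than that of an isolated gene.

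In the translated coding sequences, 151 of the 155 genes held at least 1 C2H2 pattern, with a median of 9 and at most 33 in Zfp462. The other 4 were Zfp36, Zfp259, Zfp330 and Zfp781. Zfp36 is an mRNA decay factor with fingers of another kind, so the symbol alone did not guarantee a DNA-binding C2H2 protein. A KRAB-like pattern was found in 66 genes and not in the other 89. KRAB genes had a median of 12 fingers and a transcript GC content of 41.0%, and the genes without it 7 fingers and 51.1%.

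Zfp genes were low in these cells. Their mean level had a median of 7.35 FPKM, with quartiles at 4.38 and 16.2 FPKM, where the median of all genes compared was 14.7 FPKM. Only 18 reached 30 FPKM. The level threshold chose the members and used the 4 libraries that are compared. Just inside it stood Zfp606, Zfp276 and Zfp157 with means of 3.003 to 3.041 FPKM, and just outside Zfp524, Zfp239 and Zfp61 with 2.91 to 2.95 FPKM. Of the 174 genes under the threshold, 96 had a mean between 1 and 3 FPKM and 14 a mean under 0.1 FPKM.

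The highest of all was Zfp57, a KRAB protein that binds methylated imprinting control regions and keeps their methylation. It had 171 FPKM in Dnm1l-/-, 131 FPKM in Fis1-/- and 239 FPKM in Mff-/- cells, against 166 FPKM in control cells. Mff-/- cells were thus above control, Fis1-/- cells below it, and Dnm1l-/- cells close to it. Zfp207, which loads the checkpoint protein BUB3 at kinetochores, followed with 127, 135 and 108 FPKM in Dnm1l-/-, Fis1-/- and Mff-/- cells, against 110 FPKM in control cells. The KRAB gene Zfp534 had 82.4, 107 and 58.8 FPKM in the knockouts in the same order, against 84.1 FPKM in control cells. After these came Zfp296, Zfp428, Zfp488, Zfp330, Zfp106, Zfp706 and Zfp64, with means of 36.9 to 76.4 FPKM.

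Most Zfp genes lay near their level in control cells on the deposited values. Of the 155 genes, 115 lay within 1.5-fold of control in all 3 knockouts, and 65.5% of all genes compared did so. Summed over the members, the level was 2178, 2195 and 2219 FPKM in Dnm1l-/-, Fis1-/- and Mff-/- cells and 2253 FPKM in control cells. As a share of all protein-coding FPKM that was 0.371%, 0.386% and 0.331% in the knockouts and 0.379% in control cells. In plain FPKM, 26 genes differed by over 2-fold between the highest and the lowest library, against 22.2% of all genes compared. The median ratio was 1.47, beside 1.52 over all genes.

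In Dnm1l-/- cells 1 Zfp gene was at least 2-fold higher than in control, where 2.15% of all genes compared were, and 0 were at least 2-fold lower, where 1.8% of all genes were. At a size of 1.5-fold, 3 were higher (all genes 5.75%) and 8 lower (all genes 6.79%). In Fis1-/- cells the same gene was at least 2-fold higher (all genes 1.54%), 0 were at least 2-fold lower (all genes 1.68%), and at 1.5-fold 2 were higher (all genes 5.09%) and 8 lower (all genes 6.42%). Above and below control stood 72 and 83 genes in Dnm1l-/- cells (all genes 51.1% and 48.9%) and 80 and 75 in Fis1-/- cells (all genes 50.9% and 49.1%). The median difference was -0.04 in Dnm1l-/- and 0.01 in Fis1-/- cells, beside 0.01 over all genes in both. On this scale counts past either size were thus at or below the shares over all genes. The scale shrinks the differences of low genes most, and the Zfp genes had a lower median level than all genes compared.

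Mff-/- cells were less even. At least 2-fold higher were 0 Zfp genes (all genes 2.56%) and at least 2-fold lower 3 (all genes 3.08%). At 1.5-fold, 4 were higher (all genes 11.3%) and 24, or 15.5% of the members, were lower (all genes 12.9%). Below control stood 106 of 155, where 54.1% of all genes did, and above it 49, where 45.9% did. The median difference was -0.15, beside -0.05 over all genes. How far below zero this median lay depended on the scaling: after each library was set to the same FPKM total, 129 of 155 were below control with a median of -0.32, while the median of all genes moved to -0.22. The gap between the members and all genes was -0.11 on the deposited values and -0.10 after that rescaling.

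**Figure D1:**
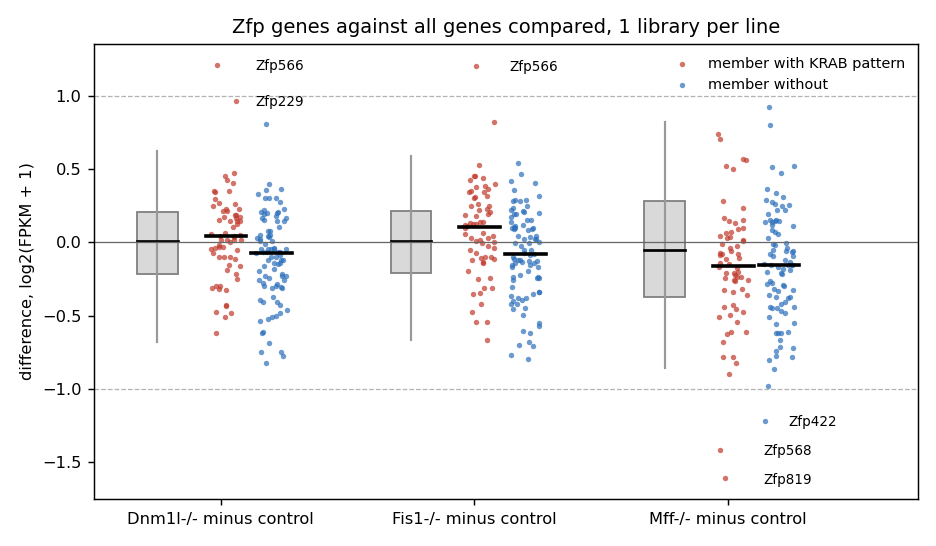
Difference from control, knockout minus control on the log2(FPKM + 1) scale, for each of the 155 Zfp genes with (red) and without (blue) a KRAB-like pattern, with the median of each as a black bar. Grey boxes show the quartiles, and grey lines the 5th and 95th percentiles, of all 8502 genes compared, and dashed lines mark 2-fold. Zfp566 is the point past 2-fold in Dnm1l-/- and in Fis1-/- cells, and Zfp819, Zfp568 and Zfp422 are those in Mff-/- cells.

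Asking which library holds the extreme value of each gene does not lean on the control alone. The lowest of the 4 values was in Mff-/- cells for 85 Zfp genes (all genes 42.2%), in Dnm1l-/- cells for 29 (all genes 18.6%), in Fis1-/- cells for 27 (all genes 20.7%) and in control cells for 14 (all genes 18.4%). The highest was in Mff-/- cells for 37 (all genes 35.8%), in Dnm1l-/- cells for 31 (all genes 19.4%), in Fis1-/- cells for 50 (all genes 23.3%) and in control cells for 37 (all genes 21.4%). Zfp genes therefore had their lowest value in the Mff-/- library in 54.8% of cases and in the control library in 9.03%. After rescaling to the same total the highest value was in Mff-/- cells for 20 genes, and the lowest in Mff-/- cells for 107, in Fis1-/- cells for 17 and in control cells for 7. Above control in Dnm1l-/- and Fis1-/- cells and below it in Mff-/- cells were 48 genes (all genes 24.8%), and 28 had the opposite pattern (all genes 19.7%).

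The gene past 2-fold in the first 2 knockouts was Zfp566, a KRAB gene with 7 finger patterns on chromosome 7 (chr7:30077337-30090510, mm10). It had 18.6 FPKM in Dnm1l-/-, 18.5 FPKM in Fis1-/- and 12.8 FPKM in Mff-/- cells, against 7.44 FPKM in control cells. All 3 knockouts were above control. The differences were 1.22, 1.21 and 0.71, with counting intervals of 0.155, 0.155 and 0.165 to each side.

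Next to it in size was Zfp229, a KRAB gene with 16 finger patterns on chromosome 17 (chr17:21733724-21748969). It had 23.6, 21.3 and 12.4 FPKM in Dnm1l-/-, Fis1-/- and Mff-/- cells, against 11.5 FPKM in control cells, with differences of 0.97, 0.83 and 0.09. In Mff-/- cells it stayed near control, and its sign there turned with the scaling (-0.08 after rescaling to the same total). Zfp326, whose human counterpart works in transcript elongation and splicing, had 7.38, 5.96 and 2.51 FPKM in the 3 knockouts in the same order, against 3.78 FPKM in control cells. Mff-/- cells lay below control and the other two knockouts above it.

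Of the 8 genes furthest below control, 7 in Dnm1l-/- and 7 in Fis1-/- cells had no KRAB pattern, and the others were the KRAB genes Zfp934 (-0.62 in Dnm1l-/- cells) and Zfp931 (-0.67 in Fis1-/- cells). Zfp64 had 28.3 and 29.5 FPKM in Dnm1l-/- and Fis1-/- cells and 39.0 FPKM in Mff-/- cells, against 50.9 FPKM in control cells, so all 3 knockouts were below control. Zfp787 had 3.47, 3.94 and 3.31 FPKM in the knockouts, against 6.52 FPKM in control cells, again with all 3 below. Zfp296, which binds KLF4 in stem cells, had 62.8 and 51.8 FPKM in Dnm1l-/- and Fis1-/- cells and 100 FPKM in Mff-/- cells, against 90.9 FPKM in control cells. Zfp706, which holds back Klf4 and favours exit from self-renewal, had the same order, with 32.4, 30.3 and 57.7 FPKM in the knockouts, against 50.2 FPKM in control cells. In both of these genes Mff-/- cells stood above the other two knockouts, and only a little above control. For Zfp296 that last sign was not kept after rescaling, where the difference was -0.04.

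The 3 genes at least 2-fold lower in Mff-/- cells on the log2(FPKM + 1) scale were 2 KRAB genes of chromosome 7 and Zfp422. In plain FPKM others passed 2-fold too, such as Zfp395 and Zfp644 at 44.2% and 45.1% of control. Zfp819, a KRAB gene tied to the silencing of retroelements in stem cells, had 14.9 FPKM in Dnm1l-/-, 22.1 FPKM in Fis1-/- and 6.40 FPKM in Mff-/- cells, against 21.6 FPKM in control cells. The Mff-/- value was 29.6% of control, a difference of -1.61 with a counting interval of 0.14. Dnm1l-/- cells were also below control, by 0.51 on the log2 scale, and Fis1-/- cells were not. Zfp568, which represses a placental promoter of Igf2 in the early embryo, had 38.5, 37.1 and 13.97 FPKM in the 3 knockouts, against 39.0 FPKM in control cells. Only the Mff-/- library departed from the other 3, with a difference of -1.42. Zfp422 (chr6:116624016-116628999) had 4.09, 4.37 and 2.10 FPKM in the 3 knockouts, against 6.20 FPKM in control cells, with all 3 below and the Mff-/- difference at -1.22.

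Higher in Mff-/- cells by 1.5-fold or more on the log2(FPKM + 1) scale were Zfp692, Zfp428, Zfp459 and Zfp566. In plain FPKM Zfp444 also passed 1.5-fold, at 155% of control. Zfp692, a gene of 5 finger patterns, had 11.99 FPKM in Dnm1l-/-, 11.3 FPKM in Fis1-/- and 28.5 FPKM in Mff-/- cells, against 14.5 FPKM in control cells. The Mff-/- value was about 2-fold above control in FPKM and 0.93 on the log scale, while the other two knockouts were below control. Zfp428, with a single finger pattern, had 49.9, 53.4 and 91.9 FPKM in the 3 knockouts, against 52.4 FPKM in control cells, so the Mff-/- library stood alone. After rescaling to the same total, the Mff-/- differences of Zfp566 (0.54) and Zfp459 (0.58) were just under 1.5-fold and those of Zfp692 (0.75) and Zfp428 (0.62) above it, and with the longest transcript only Zfp692 and Zfp428 had 0.37 and 0.21.

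**Figure D2:**
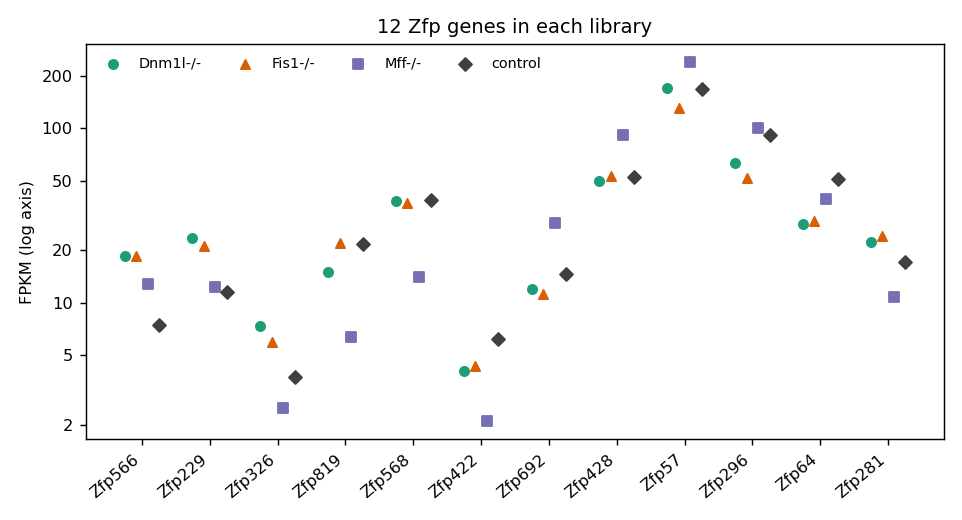
Level in FPKM (log axis) of 12 Zfp genes in the Dnm1l-/- (circles), Fis1-/- (triangles), Mff-/- (squares) and control (diamonds) libraries, 1 point per library. Zfp566 is lowest in control, at 7.44 FPKM, and Zfp819, Zfp568 and Zfp422 are lowest in Mff-/- cells, at 6.40, 13.97 and 2.10 FPKM.

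Of 23 Zfp genes listed for a known role, 22 passed the level threshold. At 2-fold, 0 were higher in any knockout (all genes 2.15%, 1.54% and 2.56%), 0 were lower in Dnm1l-/- or Fis1-/- cells (all genes 1.8% and 1.68%), and 2, Zfp819 and Zfp568, were lower in Mff-/- cells (all genes 3.08%). Among factors that silence retroviruses or hold imprints, Zfp809, which silences murine leukaemia viruses in stem cells, had 12.9, 11.8 and 10.4 FPKM in Dnm1l-/-, Fis1-/- and Mff-/- cells, against 9.35 FPKM in control cells. All 3 knockouts were above control by under 1.5-fold, but the Mff-/- difference of 0.14 turned to -0.030 after rescaling to the same total and to -0.37 with the longest transcript only. Zfp445, which protects imprints beside Zfp57, had 14.9, 15.3 and 12.2 FPKM in the knockouts, against 14.8 FPKM in control cells. Zfp932 had 15.1, 17.2 and 15.6 FPKM in the knockouts, against 16.4 FPKM in control cells, and Zfp445 and Zfp932 were at most 0.25 from control, Zfp445 in Mff-/- cells.

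Zfp281, a regulator of the move from naive to primed pluripotency, had 22.4 FPKM in Dnm1l-/-, 24.1 FPKM in Fis1-/- and 10.9 FPKM in Mff-/- cells, against 17.1 FPKM in control cells. Mff-/- cells were below control and the other two knockouts above it. Zfp143, an activator at many promoters of small nuclear RNA and protein-coding genes, had 8.38, 8.99 and 7.71 FPKM in the knockouts, against 8.67 FPKM in control cells, with differences from -0.15 to 0.05. Of the listed genes that act on RNA or ribosomes, Zfp326 had the differences given above, up to 0.81, and Zfp36, Zfp598, Zfp622 and Zfp346 had differences between -0.29 and 0.31.

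The machinery through which KRAB proteins act was measured from a list of 30 genes, of which 28 were compared. At 2-fold, 0 were higher in any knockout (all genes 2.15%, 1.54% and 2.56%). Lower at 2-fold was 1 gene, Dnmt3a, in Dnm1l-/- and in Fis1-/- cells (all genes 1.8% and 1.68%). In Mff-/- cells 0 were lower (all genes 3.08%). Dnmt3a, a de novo DNA methyltransferase, had 2.29, 2.79 and 7.43 FPKM in Dnm1l-/-, Fis1-/- and Mff-/- cells, against 7.74 FPKM in control cells. Dnmt3b, another such enzyme, had 17.5, 20.3 and 62.5 FPKM in Dnm1l-/-, Fis1-/- and Mff-/- cells, against 31.03 FPKM in control cells, with differences of -0.79, -0.59 and 0.99, the last just under 2-fold on the scale used. Trim28, the KRAB partner itself, had 410, 438 and 552 FPKM in Dnm1l-/-, Fis1-/- and Mff-/- cells, against 508 FPKM in control cells. Setdb1 had 40.03, 39.3 and 31.9 FPKM in the knockouts, against 33.99 FPKM in control cells, with differences of 0.23, 0.21 and -0.09. Median differences of the list were 0.08, 0.07 and 0.06 in the same order of knockouts, the last turning to -0.12 after rescaling to the same total.

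Chromosome 7 holds 40 of the 155 genes and chromosome 17 another 18. Zfp genes whose starts lie at most 500 kb from the next were joined into clusters, and 14 clusters held at least 3 members, 58 in all. The largest on chromosome 7 runs from Zfp84 to Zfp146 (chr7:29768552-30169727), with 8 members among 15 Zfp genes. It holds both Zfp566 and Zfp568, 49.1 kb apart.

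The cluster has a shared promoter feature. A motif of 12 letters known for the factor ZNF143 (mouse Zfp143), ACTACA, then any 1 base, then TTCCC, was searched on both strands of the 250 bases before each gene's start in RefSeq (GRCm38.p6), a search added after the values had been seen. It was present before 7 of the 7 cluster members with an entry in the promoter table. Zfp568 had no entry. Elsewhere 5 of 122 Zfp promoters (4.10%) held it, on chromosome 7 outside the members 17 of 514 (3.31%), and among all genes compared 156 of 6556 (2.38%). The matches are shown because the bases before them differ, while the 12 bases are alike by the search itself, but for the free one. Each match is read on the strand on which the motif runs, with the 12 matched bases in capitals and 9 bases on each side.
Zfp84, chr7:29768520-29768549, minus strand: ttatagtggACTACATTTCCCagaaggcgg
Zfp940, chr7:29853665-29853694, plus strand: aagtcttgaACTACATTTCCCaggagtcca
Zfp383, chr7:29908467-29908496, plus strand: caatcgcggACTACATTTCCCagaagcgtt
Zfp74, chr7:29954096-29954125, plus strand: ttgctttgaACTACATTTCCCagagccctt
Zfp566, chr7:30090566-30090595, minus strand: ctcggactgACTACATTTCCCagagggctc
Zfp260, chr7:30095038-30095067, minus strand: taactgtgaACTACATTTCCCagaagtctc
Zfp146, chr7:30169851-30169880, plus strand: cgactttggACTACACTTCCCacaaggcac
The motif ran along the gene in Zfp383 and Zfp566 and against it in the other 5. Its first base on the gene's strand lay 23 to 130 bases before the start. Together with 2 matches in Zfp317 and 1 each in Zfp1, Zfp60, Zfp180 and Zfp692, it was found 13 times in 12 of 129 Zfp promoters. A match describes the letters only, and binding was not measured.

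Genes that share the motif did not share a direction. In the 12 genes the differences ran from -0.43 to 1.22 in Dnm1l-/- cells, from -0.55 to 1.21 in Fis1-/- cells and from -0.61 to 0.93 in Mff-/- cells, with 7, 6 and 4 of 12 above control. Within the cluster, Zfp383 had 9.02, 8.89 and 4.30 FPKM in Dnm1l-/-, Fis1-/- and Mff-/- cells, against 6.21 FPKM in control cells. Zfp940 had 4.09, 3.87 and 5.41 FPKM in the knockouts, against 4.26 FPKM in control cells, so the 2 genes had opposite orders. Zfp146 had 22.5, 20.6 and 14.4 FPKM in the knockouts, against 19.1 FPKM in control cells. The cluster medians were 0.19, 0.12 and -0.31, and in Mff-/- cells its members ran from -1.42 in Zfp568 to 0.71 in Zfp566.

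The whole 250 bases before Zfp566 and before Zfp229 are given because these are the 2 genes furthest above control in Dnm1l-/- and Fis1-/- cells. Capitals mark the ZNF143 motif and the motif GGGCGG of the SP and KLF factors on either strand (RefSeq, GRCm38.p6). The intervals are chr7:30090511-30090760 on the minus strand and chr17:21733474-21733723 on the plus strand.
Zfp566: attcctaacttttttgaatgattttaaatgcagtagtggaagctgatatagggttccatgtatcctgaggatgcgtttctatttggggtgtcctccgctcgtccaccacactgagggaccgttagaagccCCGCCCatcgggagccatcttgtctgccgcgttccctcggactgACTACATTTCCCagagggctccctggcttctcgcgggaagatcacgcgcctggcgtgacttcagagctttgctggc
Zfp229: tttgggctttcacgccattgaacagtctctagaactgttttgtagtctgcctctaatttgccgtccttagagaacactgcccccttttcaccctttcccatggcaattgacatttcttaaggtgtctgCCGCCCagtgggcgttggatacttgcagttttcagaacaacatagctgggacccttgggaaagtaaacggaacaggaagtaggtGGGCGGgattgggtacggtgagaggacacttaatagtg
Zfp566 has 1 match of each kind, and Zfp229 has 2 of the SP and KLF motif. That motif was present in 48.1% of the 129 Zfp promoters and in 63.8% of all promoters, CCGGAAG of the ETS factors in 20.9% and 17.1%, the palindrome of NRF1, GCGCA followed by TGCGC, in 1.55% and 1.89%, and ATGGCGGC of YY1 in 1.55% and 1.95%.

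Most of the other clusters held members on both sides of control in at least 1 knockout. In Mff-/- cells 12 of the 14 had a median below control, in Dnm1l-/- cells 6 and in Fis1-/- cells 5. Of single members, 68.4%, 53.5% and 48.4% were below control in the same order (all genes 54.1%, 48.9% and 49.1%). In Mff-/- cells these were 42 of the 58 cluster members and 64 of the 97 others. Pairs of genes in the same cluster (113 pairs) differed by a median of 0.25, 0.30 and 0.38 in Dnm1l-/-, Fis1-/- and Mff-/- cells, and all other pairs by 0.28, 0.30 and 0.37. Neighbours were thus about as far apart as genes taken from different places.

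The cluster from Zfp930 to Zfp866 on chromosome 8 (chr8:69209046-69774911) was alike in sign. All 4 members, all KRAB genes, lay below control in all 3 knockouts (all genes 21.4%, all Zfp members 23.9%). The cluster medians were -0.27, -0.31 and -0.48. Zfp868 had 18.0, 16.8 and 17.9 FPKM in Dnm1l-/-, Fis1-/- and Mff-/- cells, against 22.8 FPKM in control cells, and Zfp869 had 5.81, 5.29 and 3.90 FPKM in the knockouts, against 8.16 FPKM in control cells. Zfp628, Zfp865 and Zfp580 near the start of chromosome 7, none with a KRAB pattern, were all below control in Dnm1l-/- and Mff-/- cells, with medians of -0.41 and -0.67, and 1 of the 3 was above control in Fis1-/- cells.

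Other clusters split. In the cluster from Zfp936 to Zfp819 (chr7:43177588-43618279), Zfp936 had 14.3, 14.3 and 30.4 FPKM in the 3 knockouts, against 20.3 FPKM in control cells, while its neighbour Zfp715 had 6.17, 6.56 and 2.82 FPKM, against 5.13 FPKM in control cells. These 2 KRAB genes stood on opposite sides of control in each knockout. Zfp808 in a cluster on chromosome 13 was like Zfp936, with 9.80, 9.77 and 18.0 FPKM in the knockouts, against 12.4 FPKM in control cells. On chromosome 17 the cluster that holds Zfp229 (chr17:21008941-23599487) had 8 members, with medians of 0.07, 0.13 and -0.23, and Zfp229 was its highest difference in Dnm1l-/- and Fis1-/- cells.

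**Figure D3:**
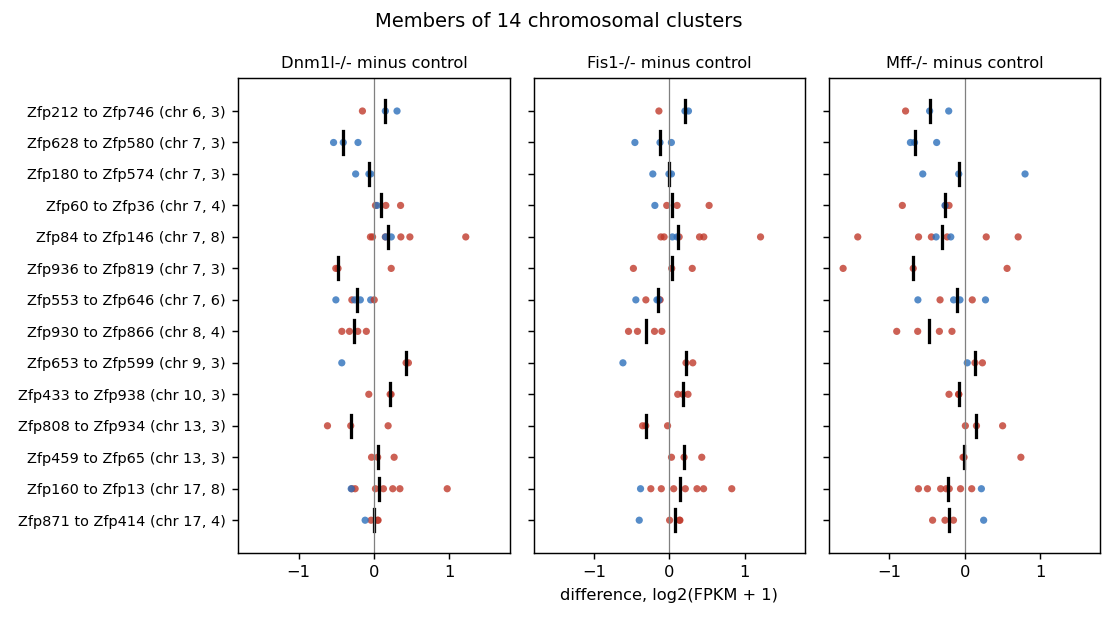
Difference from control on the log2(FPKM + 1) scale for the members of the 14 clusters, each named by its first and last member with its chromosome and number of members, in Dnm1l-/-, Fis1-/- and Mff-/- cells. Points are genes with (red) and without (blue) a KRAB-like pattern and black bars are cluster medians. The cluster from Zfp84 to Zfp146 spreads from -1.42 to 0.71 in Mff-/- cells, and all points of the cluster from Zfp930 to Zfp866 lie left of 0 in all panels.

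Transcript length moved with the differences, in the members as in all genes, in Mff-/- cells in the opposite way to Dnm1l-/- and Fis1-/- cells. GC content moved with the Dnm1l-/- and Fis1-/- differences, and in the members little with those of Mff-/- cells. In Mff-/- cells the 16 Zfp genes with a main transcript of 6000 bases or more had a median of -0.35. Of these, 1 of 16 was above control (all genes of that class 14.1%). The 22 under 2000 bases had a median of 0.07. Over all genes those classes had medians of -0.38 and 0.24. Zfp704, the longest at 13844 bases, had 5.09, 5.42 and 2.80 FPKM in Dnm1l-/-, Fis1-/- and Mff-/- cells, against 5.52 FPKM in control cells. Zfp568 at 7183 bases is in the long class too, while Zfp819 at 2412 bases is not. In Dnm1l-/- and Fis1-/- cells the short class was the low one among Zfp genes, with medians of -0.24 and -0.28. Short genes in general had -0.02 and -0.06. The short Zfp genes were also rich in GC, with a median of 56.2%, beside 52.6% for short genes in general. The longer Zfp classes had medians of 43.9% to 47.5%. Length and GC content were not separated here. Across members, Spearman's rank correlation of length with the difference was 0.14, 0.22 and -0.29 in the order Dnm1l-/-, Fis1-/-, Mff-/-, and across all genes 0.07, 0.19 and -0.47, as descriptions over 155 and 8502 genes that share the same libraries.

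**Figure D4:**
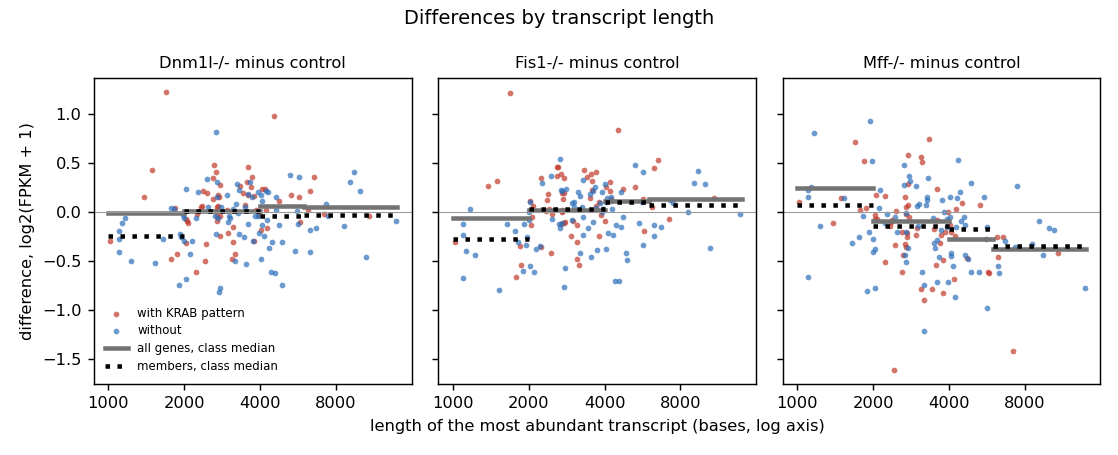
Difference from control on the log2(FPKM + 1) scale against the length in bases (log axis) of the most abundant transcript of each Zfp gene, with (red) and without (blue) a KRAB-like pattern. Lines give class medians of all genes (grey) and of the members (dotted). In Mff-/- cells both lines run downward towards long transcripts, to -0.38 and -0.35.

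GC content sorted the Dnm1l-/- and Fis1-/- differences. The 33 Zfp genes with 55% GC or more had medians of -0.30 and -0.31 in Dnm1l-/- and Fis1-/- cells, and -0.04 in Mff-/- cells. In Dnm1l-/- and in Fis1-/- cells 3 of 33 were above control (all genes of that class 29.3% and 26.5%). The 69 genes under 45% GC had medians of 0.10 and 0.14 in Dnm1l-/- and Fis1-/- cells, and -0.17 in Mff-/- cells. In the first 2 knockouts 45 and 51 of 69 were above control (all genes of that class 71.4% and 77.1%). All genes of the GC-rich class had -0.17, -0.18 and 0.05, and those of the GC-poor class 0.14, 0.19 and -0.15, so the same order held outside the family. Spearman's rank correlation of GC content with the difference was -0.40, -0.50 and 0.05 across the members in the order Dnm1l-/-, Fis1-/-, Mff-/-, and -0.35, -0.42 and 0.14 across all genes. It was -0.01, -0.13 and -0.18 within the 66 KRAB genes and -0.54, -0.62 and 0.20 within the 89 others. The GC-rich members Zfp64, Zfp219, Zfp787, Zfp821, Zfp335, Zfp423, Zfp653 and Zfp296, at 56.7% to 63.6%, were among the 8 furthest below control in Dnm1l-/- or Fis1-/- cells. Genes of lower GC content stood among them too, namely Zfp706 at 43.4%, Zfp934 at 35.7%, Zfp931 at 41.3% and Zfp637 at 52.3%.

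KRAB genes are mostly poor in GC, so they were set beside the others by class of GC content as well. Their median differences were 0.04, 0.11 and -0.16 in Dnm1l-/-, Fis1-/- and Mff-/- cells, and those of the genes without the pattern -0.07, -0.08 and -0.15. Among genes under 45% GC, the 48 with a KRAB pattern had medians of 0.05 and 0.12 in Dnm1l-/- and Fis1-/- cells, and the 21 without it 0.15 and 0.20. At 45% to under 50% GC the order was the other way, with medians of 0.07 and 0.13 for the 11 genes with the pattern and -0.04 and 0.00097 for the 19 without it. KRAB genes were thus the higher ones in 1 of these classes and not in the other. Only 2 KRAB genes had 55% GC or more.

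**Figure D5:**
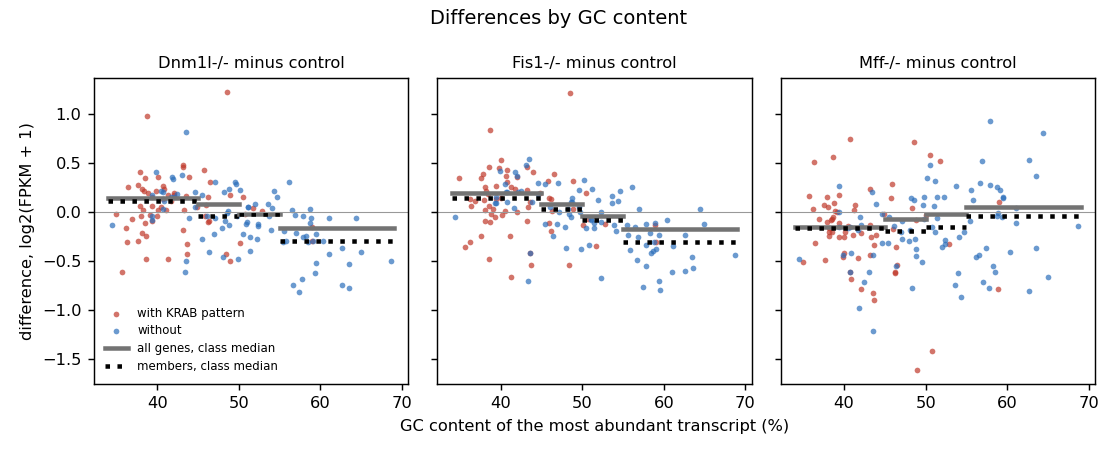
Difference from control on the log2(FPKM + 1) scale against the GC content (%) of the most abundant transcript of each Zfp gene, with (red) and without (blue) a KRAB-like pattern. Lines give class medians of all genes (grey) and of the members (dotted). In Dnm1l-/- and Fis1-/- cells the member medians go down to -0.30 and -0.31 in the GC-rich class, and in Mff-/- cells the classes differ little.

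Among the 42 genes with several protein-coding transcripts, the most abundant transcript was another than in control in 4 genes in Dnm1l-/-, 4 in Fis1-/- and 9 in Mff-/- cells. The same share over all genes with several transcripts was not counted, so these counts do not set the Zfp genes apart. In Zfp57 the transcript NM_001168501 had 35.6 FPKM in Dnm1l-/-, 26.8 FPKM in Fis1-/- and 157 FPKM in Mff-/- cells, against 32.6 FPKM in control cells. The main transcript of the other 3 libraries, NM_001013745, had 117, 89.4 and 61.6 FPKM in the knockouts, against 116 FPKM in control cells. The 2 transcripts thus changed places in the Mff-/- library while the gene's sum was 144% of control. In Zfp266 the transcript NM_001135019 made up 99.9% of the gene in Mff-/- cells and 17.9% in control cells. Reads shared by transcripts of a gene were divided between them by the authors' software, so these shares are less certain than the sums.

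Facts of the libraries bear on these values. Each targeted gene was lowest in its own knockout without being absent: Dnm1l had 19.1 FPKM in Dnm1l-/- cells against 24.5 FPKM in control cells, Fis1 had 56.2 FPKM in Fis1-/- cells against 103 FPKM in control cells, and Mff had 11.8 FPKM in Mff-/- cells against 28.9 FPKM in control cells. Transcript levels do not show whether a protein is made. All 14 listed stem cell markers passed the level threshold, with 5, 7 and 11 of them above control in Dnm1l-/-, Fis1-/- and Mff-/- cells, and they did not move one way. Nanog had 437, 389 and 178 FPKM in the knockouts, against 221 FPKM in control cells, and Pou5f1 had 913, 808 and 1753 FPKM in the knockouts, against 1208 FPKM in control cells. The 20 listed fibroblast markers, which feeder cells would carry and of which 3 passed the threshold, summed to 38.1 and 40.1 FPKM in Dnm1l-/- and Fis1-/- cells and 92.2 FPKM in Mff-/- cells, against 33.9 FPKM in control cells. Without S100a4 the sums were 33.9, 35.5 and 48.2 FPKM in the knockouts, against 27.2 FPKM in control cells. With S100a4 kept and Tagln left out, they were 19.97, 21.4 and 79.1 FPKM in the knockouts, against 23.6 FPKM in control cells. Dnm1l-/- and Fis1-/- cells were then below control, and Mff-/- cells were still above it. The defining collagen Col1a1 had 0.965, 1.07 and 3.27 FPKM in the knockouts, against 1.505 FPKM in control cells. The 13 measured genes of the 2-cell-like state summed to 196, 166 and 101 FPKM in the knockouts, against 95.4 FPKM in control cells, and without Eif1a, which held most of that sum, to 84.0, 47.2 and 25.4 FPKM in the knockouts, against 4.45 FPKM in control cells. Of the 6 that passed the threshold, 5 were at least 2-fold higher in each knockout (all genes 2.15%, 1.54% and 2.56%). The part of these differences, of length and of GC content in the Zfp values was not tested. In bulk RNA, fewer cells with a transcript and less of it per cell cannot be told apart.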

How the data were processed

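Gene levels came from 1 table deposited by the authors, which per the file headers holds FPKM for 33818 RefSeq transcripts in 4 libraries, with transcript lengths and positions. Per the submitters' processing notes the tools were StringTie 1.3.3b, STAR 2.5.2b and FastQC 0.11.5, besides R 3.6.1, and the build was mm10; no roles are stated. Libraries were made with TruSeq kits from Trizol-isolated RNA, per the labels' protocols, and no source used here says if the quantification was stranded. FPKM divides by the fragments of a library, so a few abundant transcripts shift all others, and the totals ran from 597921 in Fis1-/- to 707746 in Mff-/- cells. The column named for Drp1, the protein of Dnm1l, was taken as Dnm1l-/-.

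FPKM of protein-coding transcripts was summed per symbol (445 such transcripts without a symbol and 1 empty line were left out, among them second placements of Zfp433 and Zfp781), kept at a mean of 3 FPKM, and compared as log2(FPKM + 1) with Python 3.11.15 and pandas 2.3.3. Genes were counted at 2-fold and 1.5-fold. The 2-fold count was first run on simulated libraries with planted changes larger than 2-fold and with counting error only. The 1.5-fold count was not simulated. With 1 library per group no test was made. Depth came from 628 to 688 low values per library of transcripts of at least 3000 bases, of which 88.1% to 90.7% lay within 0.15 of a whole multiple of 1 fragment. Intervals and depths cover counting error only.

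GC content, finger patterns (C, 2 to 4 residues, C, 12 residues, H, 3 to 5 residues, H) and KRAB-like patterns were computed from GENCODE vM21 sequences matched by RefSeq identifier for all 155 genes, and the 129 promoters came from RefSeq. The genes named are the 10 highest, the 8 furthest from control on each side, those with a known role, cluster members, those at the threshold and the longest and shortest. The genes compared, the lists and the tests were chosen with earlier results of these data known.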

Additional observations from a re-analysis of the deposited data

Results flagged for a closer look

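Only the Zfp genes picked by the naming rules above were searched here, not all members. In 8 of them 2 knockouts lay on opposite sides of control and over 1 apart on the log2(FPKM + 1) scale. Mff-/- cells were always 1 of the pair. The share of all genes with such a gap was not counted. The difference between the knockouts was not tested, since each has 1 library. Mff-/- cells were the lower of the pair in Zfp326 by 1.26, Zfp395 by 1.08 and Zfp281 by 1.08, and in Zfp644 by 1.39, the widest gap. They were the higher of the pair in Zfp692 by 1.27, Zfp219 by 1.14, Zfp936 by 1.04 and Zfp423 by 1.04. Zfp644 had 12.1 FPKM in Dnm1l-/-, 12.5 FPKM in Fis1-/- and 4.15 FPKM in Mff-/- cells, against 9.20 FPKM in control cells. Zfp219 had 20.7, 23.9 and 46.8 FPKM in the knockouts in the same order, against 36.1 FPKM in control cells.

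Outside the protein-coding transcripts, the noncoding transcript NR_028331 of Zfp672 had 1.25 FPKM in Dnm1l-/-, 1.36 FPKM in Fis1-/- and 2.94 FPKM in Mff-/- cells, against 0.165 FPKM in control cells, a difference of 1.76 in Mff-/- cells. This rests on few fragments, an estimated 21.0, 23.4 and 50.0 in the knockouts and 2.98 in control cells. The other noncoding transcript of Zfp672, NR_046280, had 1.57, 1.195 and 2.77 FPKM in the knockouts, against 1.35 FPKM in control cells, with Fis1-/- cells below control.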

How the results depend on the processing

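No paired analysis was possible because each group has 1 library, and leaving out a replicate could not be tried for the same reason. Of 429 recomputed summary values, 373 stayed within set limits and 56 moved. The limit was 1.5 times for a count. For a median it was an interval of the median drawn from the spread between genes. For small sets, most clusters among them, it was the full range of their genes, which is wide. No median reached 2-fold, so none could turn a 2-fold call round. At least 2-fold higher were 2 genes in Dnm1l-/- cells with a pseudocount of 0.1 (Zfp229 added), with the longest transcript only (Zfp281 added), and with a filter at 1 FPKM or none (Zfp521 added), and 2 in Fis1-/- cells with the same looser filters. At least 2-fold lower in Fis1-/- cells was 1 gene, Zfp516, in TPM, with a filter at 1 FPKM and with none. In Mff-/- cells 1 gene, Zfp672, was higher with noncoding transcripts included, and the number lower was 7 with a pseudocount of 0.1, 9 in TPM, and 5 each after rescaling to the mean FPKM total, after rescaling without the 1% most abundant genes, and with the longest transcript.

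The values of Mff-/- cells moved with scaling. Given for the mean total, TPM and the scaling without the most abundant genes, the median of the members was -0.32, -0.34 and -0.29, of those of 2000 to under 4000 bases -0.30, -0.31 and -0.28, with a KRAB pattern -0.32, -0.34 and -0.29 and without it -0.32, -0.33 and -0.29. For members of 6000 bases or more it was -0.56 in TPM, and for the co-repressor list -0.12 under the mean total and in TPM, against 0.06 as deposited. In the same order, cluster medians in Mff-/- cells were -0.81, -0.87 and -0.79 for Zfp628 to Zfp580, -0.030, -0.031 and -0.0083 for Zfp653 to Zfp599 (0.14 as deposited), and -0.15, -0.16 and -0.13 for Zfp459 to Zfp65. For Zfp433 to Zfp938 they were -0.23 under the mean total, -0.24 in TPM and -0.033 after centring, and for Zfp808 to Zfp934 0.0046 under the mean total and 0.0050 in TPM. In Fis1-/- cells, under the mean total and in TPM, they were 0.26 and 0.27 for Zfp212 to Zfp746, 0.049 and 0.050 for Zfp180 to Zfp574 (-0.0060 as deposited), and -0.10 and -0.11 for Zfp553 to Zfp646. In Dnm1l-/- cells Zfp433 to Zfp938 had 0.23 in TPM. Under the mean total 17 genes were lowest in Fis1-/-, 20 highest in Mff-/- and 7 lowest in control cells, and without the most abundant genes 23 were highest in Mff-/- and 8 lowest in control cells. The cause of these moves beyond the change of scale was not tested. All-gene medians moved to -0.22, -0.24 and -0.19 in Mff-/- cells under the same 3 scalings. Restricting the family to genes with a C2H2 pattern, joining clusters over 1000 kb and a filter at 5 FPKM moved none of these summary values past those limits, though with that filter 2 genes were lower in Mff-/- cells, without Zfp422, which was also not among the 5 with the longest transcript. TPM rescales all levels, so 200 Zfp genes then passed the filter. Depth limits single differences to about 0.13, and the spread between cultures was not measured.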

Other observations

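Other finger families with the same level of 3 FPKM or more were set beside the Zfp genes as values only. The 21 Zbtb genes had median differences of 0.06, -0.18 and -0.11 in Dnm1l-/-, Fis1-/- and Mff-/- cells, each minus control. The 33 genes with both a KRAB-like and a finger pattern but another symbol had medians of -0.25, -0.09 and -0.02 in the same order, and 11, 8 and 3 of them were lower by 1.5-fold or more, against 1, 1 and 10 of the 66 KRAB genes named Zfp (all genes 6.79%, 6.42% and 12.9%). This difference between the 2 sets of KRAB genes was not tested. Their median GC content was 39.0%, and that of the KRAB genes named Zfp was 41.0%. The 9 Zscan genes, a family that overlaps the list of the 2-cell-like state, had medians of 0.35, 0.30 and 0.53. In the 3 knockouts 4, 4 and 3 of them were at least 2-fold higher (all genes 2.15%, 1.54% and 2.56%), each time with Zscan4c, Zscan4d and Zscan4f of that list. At that size 1 Zfp gene, Zfp566, was higher in Dnm1l-/- and in Fis1-/- cells and 0 in Mff-/- cells.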
